A study of Mus musculus with 2040 samples.

Results

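The cholesterol and fatty acid synthesis genes are 36 named gene columns of the 32245 in a table of single cells from mouse brain, listed by name with no measured value in the rule. They are 3 genes of acetyl-CoA supply, 7 of the mevalonate and isoprenoid steps, 11 of the squalene and sterol steps, 6 of control and sterol transport, and 9 of fatty acid synthesis, elongation and desaturation. The study sorted single cells that carried the yellow fluorescent protein SYFP2 from C57Bl/6J mice, each given 1 adeno-associated virus (AAV) whose reporter is driven by 1 enhancer or promoter, and made a SMARTerv4 polyA library from each sorted cell of 47 mice and 30 vectors. Levels are reads of a gene scaled to 1000000 per cell (CPM), averaged over the cells of a class in each mouse, so that the mouse is the replicate. All mice had the same strain label, and their age is not given in the labels.

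Cell classes were rebuilt by clustering without any of the 36 genes, and clusters are called "-like" after their markers. Primary visual cortex (VISp) gave oligodendrocyte-like cells from 22 mice (15 vectors, 18 to 63 cells a mouse), astrocyte-like cells from 19 mice (12 vectors, 11 to 45 cells a mouse) and neuron-like cells from 3 mice (2 vectors, 13 to 27 cells a mouse). Astrocyte-like cells also came from cerebellar cortex (CBX; 2 mice, A and B in the order their values are given, with 41 and 38 cells), both with the vector eHGT_375m. Those of midbrain and hindbrain (MB/HB; 4 mice, 30 to 41 cells a mouse) came with eHGT_381h and MGT_E160m. Each vector was used in 1 tissue, so vector and tissue cannot be told apart. A sorted cell is one in which the virus was active, which limits every group to the cells its vectors reach. The neuron-like cells came from mice given eHGT_374m or MBP_promoter, vectors that gave glia in the same mice, and the cluster's leading genes Gad1 and Gad2 are markers of inhibitory neurons.

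Cholesterol is built from acetyl-CoA through mevalonate, isoprenoids, squalene and a series of sterols, and the fatty acid route starts from the same acetyl-CoA through malonyl-CoA. Both are controlled at the level of transcription by the sterol regulatory element binding proteins, which the sterol sensors Scap and Insig hold in the endoplasmic reticulum when sterol is plentiful. Brain makes its own cholesterol because little crosses the blood-brain barrier; oligodendrocytes need it with long-chain fatty acids for myelin, and astrocytes are known to supply it to neurons. The last steps can run along a Bloch branch or a Kandutsch-Russell branch, which use the same enzymes in a different order.

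The classes carried their defining markers. The 12 oligodendrocyte markers summed to between 66913 and 90728 CPM in the oligodendrocyte-like values, and the 12 astrocyte markers to between 30911 and 41121 CPM in the VISp astrocyte-like values. Depth was similar, with group medians from 375425 to 442877 reads per cell, while neuron-like cells had 8461 genes detected per cell against 4385 in VISp astrocyte-like cells. 1 oligodendrocyte-like value stood apart: that mouse had the lowest oligodendrocyte marker sum and was the lowest of the 22 mice for 12 of the 36 genes. Exons of 8 of the 36 genes share bases with another protein-coding gene in GENCODE (GRCm38), most in Fdps (26.7% of its exon bases, with Gm43738), Fdft1 (18.3%, with Ctsb) and Tm7sf2 (12.1%, with Vps51). Reads of these genes, and of the near-identical Scd genes and of Acat2 and its copy Acat3, may be split or shared, and the strand used in counting is not given in the sources used here.

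Promoter windows of the genes were searched for 3 motifs. RefSeq starts on GRCm38.p6 matched 29 of the 36 genes, with 38 windows of 250 bases before a start. The letters CCAAT, the box bound by the factor NF-Y, stood on either strand in 63.2% of these windows against 33.8% of all 32851 windows. The GC box GGGCGG, which Sp1 binds, stood in 71.1% against 32.7%. The sterol regulatory element core CACCCCAC stood in 5.26% against 2.58%, in the windows of Hmgcs1 and Acat2. The windows below hold 2 genes with lower and 2 genes with higher levels in oligodendrocyte-like than in astrocyte-like cells, and lie outside annotated exons. Capitals mark any of the 3 motifs on either strand, and matches that overlap run together.
Hmgcs1, chr13:119690101-119690350, plus strand: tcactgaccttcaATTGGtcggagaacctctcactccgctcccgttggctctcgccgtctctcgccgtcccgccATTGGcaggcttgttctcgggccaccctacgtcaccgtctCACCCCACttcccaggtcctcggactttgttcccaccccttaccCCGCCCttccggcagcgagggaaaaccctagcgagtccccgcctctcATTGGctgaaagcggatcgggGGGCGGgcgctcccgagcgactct
Mvd, chr8:122443423-122443672, minus strand: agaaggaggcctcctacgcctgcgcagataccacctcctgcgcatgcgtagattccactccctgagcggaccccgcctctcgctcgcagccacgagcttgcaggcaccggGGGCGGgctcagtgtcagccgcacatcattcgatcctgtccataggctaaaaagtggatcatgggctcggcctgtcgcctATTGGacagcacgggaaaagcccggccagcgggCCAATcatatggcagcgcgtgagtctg
Ebp, chrX:8193513-8193762, minus strand: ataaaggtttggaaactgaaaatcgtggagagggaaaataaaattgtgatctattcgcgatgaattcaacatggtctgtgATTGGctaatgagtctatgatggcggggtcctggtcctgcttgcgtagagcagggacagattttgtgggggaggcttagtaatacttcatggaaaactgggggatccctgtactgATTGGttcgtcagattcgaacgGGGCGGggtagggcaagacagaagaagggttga
Elovl1, chr4:118427843-118428092, plus strand: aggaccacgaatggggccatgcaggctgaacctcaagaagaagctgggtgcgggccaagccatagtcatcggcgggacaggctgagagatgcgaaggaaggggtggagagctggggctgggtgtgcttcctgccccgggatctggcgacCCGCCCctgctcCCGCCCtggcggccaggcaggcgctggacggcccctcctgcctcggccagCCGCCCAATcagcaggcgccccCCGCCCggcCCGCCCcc
The Hmgcs1 window held 1 sterol element core, 3 CCAAT boxes and 2 GC boxes. The Mvd and Ebp windows each held 2 CCAAT boxes and 1 GC box with no match to the core, and the printed Elovl1 window held 1 CCAAT box and 5 GC boxes. Another Elovl1 window outside annotated exons, not printed, held 0 CCAAT boxes and 2 GC boxes. The shares were set beside all windows, and not beside windows of other genes expressed in these cells. These are matches of letters, and binding was not measured here. Any part of the motifs in the differences between classes was not tested.

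The summed levels of the sterol and of the fatty acid genes were ordered differently across the classes. The summed level of the 18 mevalonate and sterol genes was 4449 CPM in the lowest, 6190 CPM in the median and 8562 CPM in the highest of 19 VISp astrocyte-like values. In the 22 oligodendrocyte-like values it was 1141, 1741 and 2409 CPM, and in the 3 neuron-like values 1056, 1105 and 1343 CPM. Every astrocyte-like value of VISp lay above every oligodendrocyte-like and neuron-like value. MB/HB astrocyte-like cells lay between, at 2845 to 3938 CPM (median 3220, n = 4), and CBX astrocyte-like cells at 1860 and 1981 CPM overlapped the oligodendrocyte-like range. The 9 fatty acid genes summed to 3373, 4111 and 7669 CPM in oligodendrocyte-like cells and to 2060, 2858 and 4365 CPM in VISp astrocyte-like cells, ranges that overlap. The 3 neuron-like values were far below both, at 246.2, 271.9 and 310.1 CPM. Single genes weighed heavily in some of these sums. Scd2 averaged 3054 CPM in oligodendrocyte-like mice, where the fatty acid sum averaged 4509 CPM. In VISp astrocyte-like mice it averaged 814.5 of 2984 CPM, so the order of these glial sums rests on Scd2. Msmo1 averaged 3293 CPM of a mean sterol sum of 6587 CPM in VISp astrocyte-like mice. A mean over the cells of a class does not by itself separate fewer expressing cells from less RNA per cell. Shares of cells with a gene detected are given for some genes further below.

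**Figure D1:**
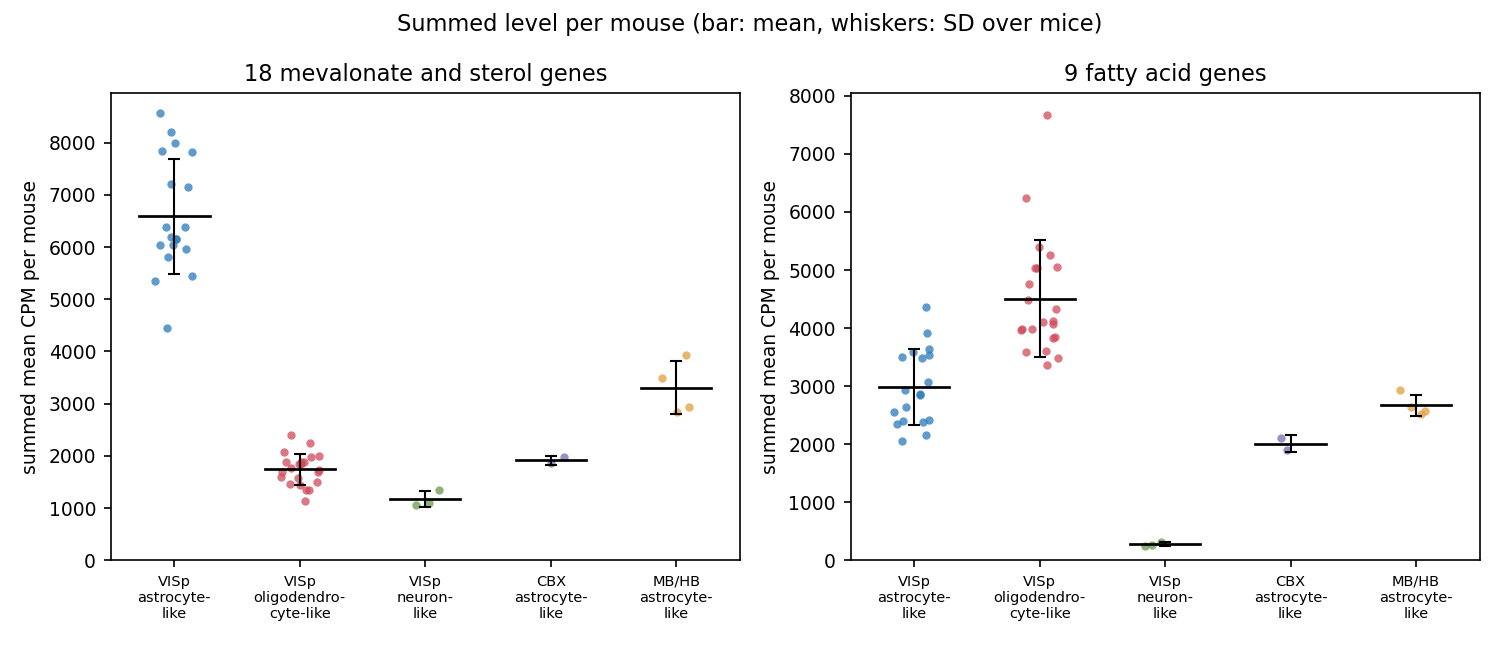
Summed CPM per mouse of the 18 mevalonate and sterol genes (left) and the 9 fatty acid genes (right) in the 5 groups; each point is 1 mouse, the bar is the mean and the whiskers the SD over mice. VISp astrocyte-like cells hold the highest sterol sums (4449 to 8562 CPM), and neuron-like cells the lowest fatty acid sums (246.2 to 310.1 CPM). Scd2 holds most of the oligodendrocyte-like fatty acid sum (mean 3054 of 4509 CPM).

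Oligodendrocyte-like and astrocyte-like cells of VISp differed in nearly the whole pathway. Of the 36 genes, 6 were higher and 27 lower in oligodendrocyte-like cells (limma on log2(mean CPM + 1), Benjamini-Hochberg adjusted p under 0.05 over 3824 genes), where 55.4% of all genes tested were called, 21.5% higher and 33.9% lower (54.7% of the randomly drawn genes). Without the mouse that stood apart 34 were called. The median difference of the 36 genes was -0.89 on the log2 scale against -0.15 over all genes. Among the 18 mevalonate and sterol genes 16 were lower and 1 was higher (median -1.58), while 4 of the 9 fatty acid genes were higher and 5 lower. Mouse values of the groups did not overlap for 10 of the 36 genes, against 12.3% of all genes. The 12 oligodendrocyte markers alone took a median of 83892 CPM in oligodendrocyte-like cells. Trimmed-mean (TMM) factors were taken from the 5050 genes used, scaled to equal sums, and then applied to CPM of the whole library. Group differences in the summed share of these genes stay in the values, so this is not a full TMM normalization. It shows only how calls depend on scale. With this TMM rescaling the median difference of all genes moved from -0.15 to 0.13. Many of the 36 genes moved further and by nearly the same amount, such as Msmo1 from -3.41 to -2.74 and Acat2 from -0.58 to 0.09. A sign or call that turned with TMM rescaling reflects this shared shift and is not a result about that gene alone. Shares of all genes called with TMM rescaling are not given here. On that scale 10 genes were higher and 14 lower, with the sterol genes at 4 higher and 10 lower and the fatty acid genes at 4 higher and 3 lower. Acat2, Fdps, Sc5d, Srebf2, Insig2 and Acaca changed sign with it, of which Fdps and Sc5d were then called higher.

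In the supply of acetyl-CoA, Acss2, which makes acetyl-CoA from acetate, ranged from 63.5 to 563.6 CPM in astrocyte-like and from 30.6 to 138.3 CPM in oligodendrocyte-like mice. The difference was -1.73 (SE 0.16, limma adjusted p = 1.1e-13), although the ranges overlapped. Acly, which makes it from citrate, missed the threshold at 0.35 (SE 0.17, limma adjusted p = 0.0842) and was called higher with TMM rescaling, at 1.02 (limma adjusted p = 1.32e-06). Acat2, the thiolase that joins 2 acetyl-CoA, was lower by this fit at -0.58 (SE 0.13), a sign that TMM rescaling turned.

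The mevalonate steps were lower in oligodendrocyte-like cells in 6 of 7 genes, but with TMM rescaling only Mvk, Mvd and Idi1 were lower, and Fdps and Ggps1 were higher. Mvd, which makes isopentenyl diphosphate, ranged from 45.9 to 380 CPM (median 179.6) in astrocyte-like mice and from 5.94 to 45.2 CPM (median 22.3) in oligodendrocyte-like mice. No oligodendrocyte-like value reached the lowest astrocyte-like one, and the difference was -2.96 (SE 0.20, 7.77-fold, limma adjusted p = 6.5e-19). Mvk, the first kinase of mevalonate, was lower by 4.57-fold and Idi1, the isomerase, by 3.04-fold, while their mouse ranges overlapped. Hmgcs1, which makes HMG-CoA and whose window is printed above, ranged from 172.9 to 621.3 CPM in astrocyte-like and from 84.3 to 281.3 CPM in oligodendrocyte-like mice, a 1.98-fold difference. With TMM rescaling Hmgcs1 was at -0.31 and Pmvk, the second mevalonate kinase, at -0.18, neither called (limma adjusted p = 0.072 and 0.301). Ggps1, which makes geranylgeranyl diphosphate for protein prenylation rather than sterol, had a difference of 0.08 (SE 0.13, limma adjusted p = 0.639), which with TMM rescaling was 0.75 and called (limma adjusted p = 8.09e-07).

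Of the 11 squalene and sterol genes 10 were lower and 1 was higher. Fdft1, squalene synthase, had 392.1, 626.3 and 1018 CPM in the lowest, median and highest astrocyte-like mouse and 81.9, 137.4 and 245.5 CPM in oligodendrocyte-like mice. Sqle, the epoxidase that follows it, ranged from 212.6 to 527.3 CPM against 15.3 to 147.5 CPM. Neither gene's ranges overlapped, and the differences were -2.25 (SE 0.11) and -2.54 (SE 0.16; limma adjusted p = 4.2e-25 and 9.8e-21). Msmo1, the C4-methyl oxidase, was at 2351, 3246 and 4186 CPM in astrocyte-like mice and at 114.9, 322.9 and 590.4 CPM in oligodendrocyte-like mice, again without overlap, with a difference of -3.41 (SE 0.12, 10.7-fold, limma adjusted p = 5.4e-32). Tm7sf2, a C14 reductase, was listed at 0 in the lowest oligodendrocyte-like mouse, with a median of 6.49 and a highest value of 17.6 CPM, against 54.4, 88.96 and 180.6 CPM in astrocyte-like mice (difference -3.86, SE 0.25, limma adjusted p = 4.5e-20). Dhcr7, which makes cholesterol from 7-dehydrocholesterol in the Kandutsch-Russell branch, was 2.96-fold lower without overlap.

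Ebp, the sterol isomerase, went the other way. It had 9.73, 19.97 and 68.98 CPM in astrocyte-like mice and 54.5, 123.3 and 181.1 CPM in oligodendrocyte-like mice. The groups met only at their edges, and the difference was 2.36 (SE 0.20, 5.12-fold, limma adjusted p = 1.2e-15). Thinned to 50000 reads per cell, a depth every cell had, Ebp was detected in 61.7% ± 10.7 (SD, n = 22 mice) of oligodendrocyte-like and 14.97% ± 7.63 (SD, n = 19) of astrocyte-like cells (unthinned 64.7% and 15.9%). Sc5d and Fdps, which add the last ring double bond and make farnesyl diphosphate, differed least among the called sterol genes, at -0.35 and -0.33.

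Of the 6 genes of control and transport 4 were lower and 1 was higher. Srebf1, whose product drives fatty acid genes, was 1.92-fold lower in oligodendrocyte-like cells, and Srebf2, the sterol counterpart, 1.44-fold lower. With TMM rescaling neither was called, with Srebf1 at -0.27 (limma adjusted p = 0.158) and Srebf2 turned to 0.14. Scap, the escort of both, was higher by 0.60 (SE 0.19). Insig1, a retention protein and itself a target, had a difference of -0.46 (SE 0.23, limma adjusted p = 0.0768). Stard4, a sterol carrier, was at 0 to 46.7 CPM and 0 to 22.6 CPM, so that at these low levels the groups overlapped widely.

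The fatty acid genes went in both directions. Fasn, the synthase, was 2.0-fold lower in oligodendrocyte-like cells, and Acaca, the carboxylase before it, 1.41-fold lower. With TMM rescaling Acaca turned to 0.17 and Fasn, at -0.33, was no longer called (limma adjusted p = 0.0552). Elovl1, which elongates saturated very long chains, was higher, at 334.7 to 600.7 CPM in oligodendrocyte-like against 65.4 to 168.5 CPM in astrocyte-like mice without overlap (difference 2.29, SE 0.13, limma adjusted p = 5.7e-23). Elovl6, which takes palmitate to stearate, was 1.94-fold higher with overlapping ranges. Elovl5, which elongates polyunsaturated chains, was lower without overlap, with a median of 464.6 and a highest value of 658.8 CPM against 719.5, 919.7 and 1801 CPM (difference -1.07, SE 0.11).

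Of the 4 desaturases 2 were higher and 2 lower. Scd2, a stearoyl-CoA desaturase that makes oleate, was at 457.1, 839.4 and 1181 CPM in astrocyte-like and 2120, 2753 and 5929 CPM in oligodendrocyte-like mice, without overlap (difference 1.91, SE 0.11, limma adjusted p = 2.9e-22). Scd1 was higher too, by 2.16-fold with overlap. Fads2, which starts the desaturation of polyunsaturated chains, had 210.9, 437.1 and 707.4 CPM in astrocyte-like mice and 0, 14 and 56.4 CPM in oligodendrocyte-like mice. This was the widest gap of the 36 genes, at -5.34 (SE 0.33, limma adjusted p = 1.4e-20), and Fads2 was seen in 7.72% ± 5.40 (SD, n = 22) of oligodendrocyte-like against 83.97% ± 11.1 (SD, n = 19) of astrocyte-like cells after thinning (unthinned 9.25% and 89.3%). Fads1, the desaturase that follows, was 2.32-fold lower.

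**Figure D2:**
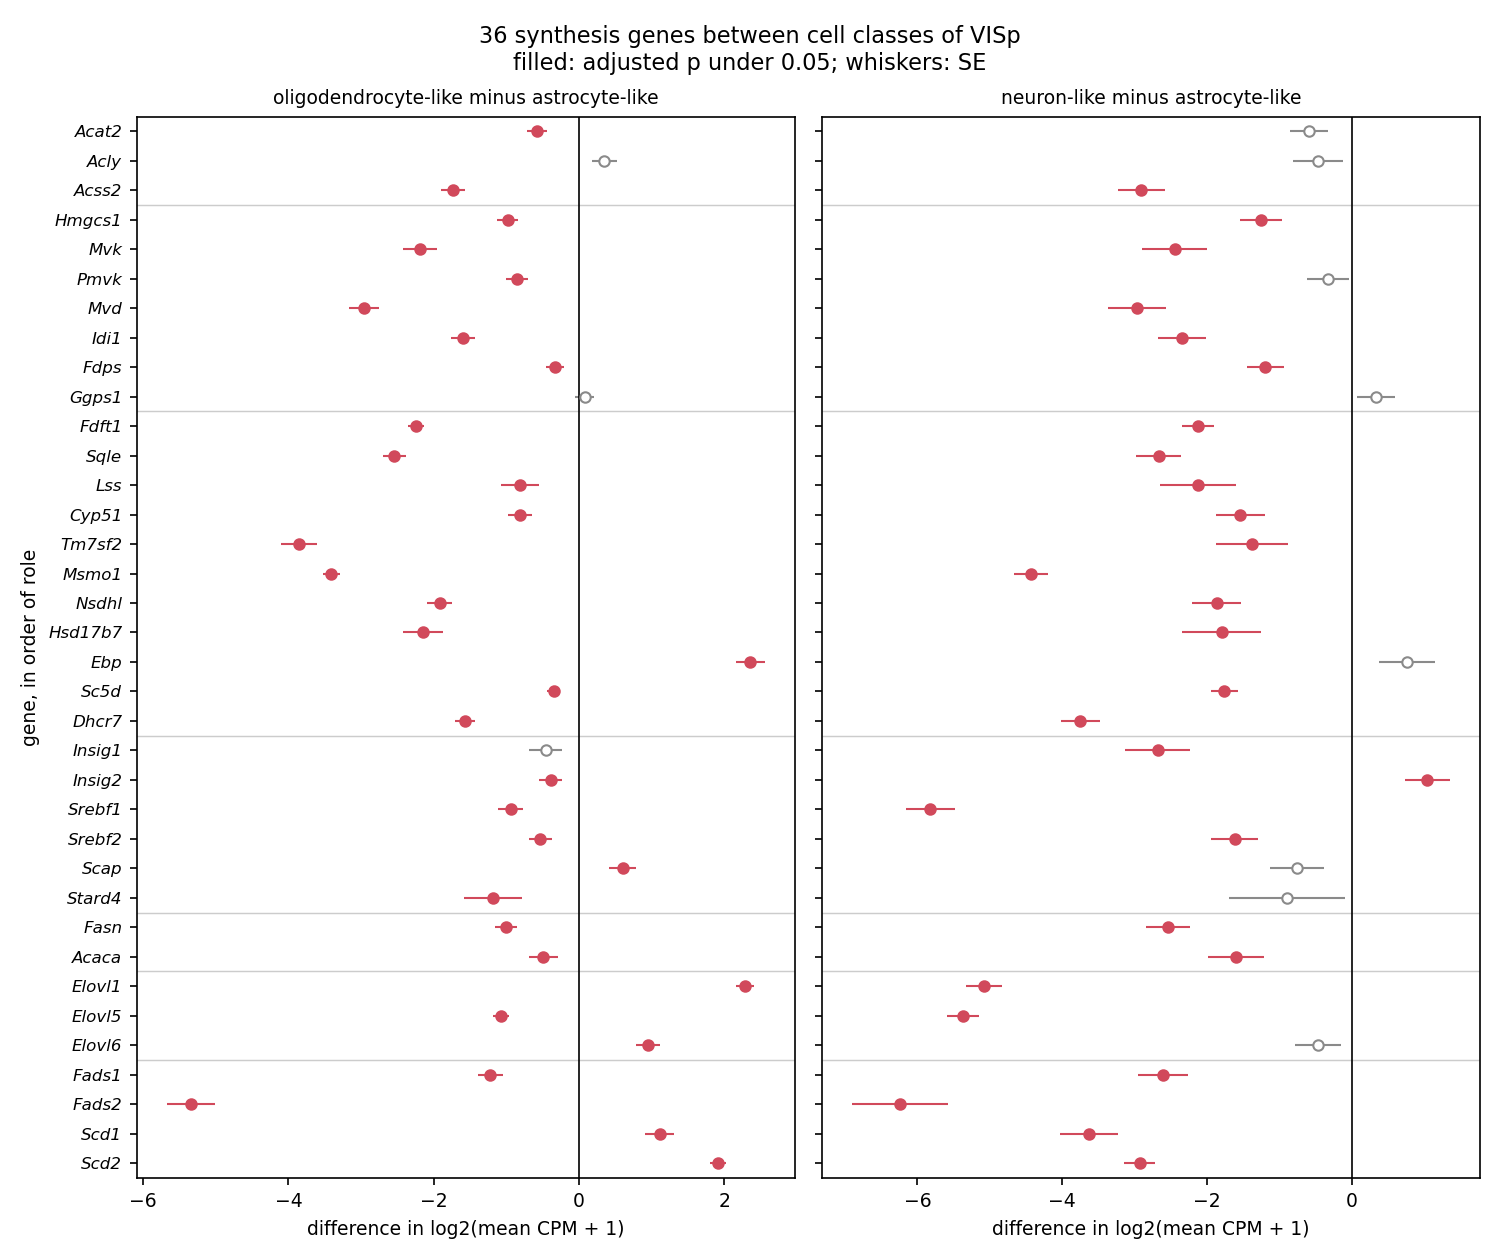
Differences in log2(mean CPM + 1) for the 36 genes, in order of role, of oligodendrocyte-like (left) and neuron-like (right) against astrocyte-like cells of VISp; filled points passed the adjusted test and whiskers are SE. Left, Fads2 (-5.34) and Tm7sf2 (-3.86) lie lowest and Ebp (2.36) and Elovl1 (2.29) highest. With TMM rescaling 6 of the left genes (Acat2, Fdps, Sc5d, Srebf2, Insig2, Acaca) change sign.

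Other lipid genes of the same and neighbouring routes were counted too. Of 27 further synthesis and control genes 8 were higher and 16 lower in oligodendrocyte-like cells, with a median of -1.35. In this comparison 55.4% of all genes were called. Elovl2, which elongates polyunsaturated chains further, was lower by 6.42 on the log2 scale. Of 10 sphingolipid and galactolipid genes of myelin 7 were higher and none lower, with a median of 1.68. Ugt8a, which makes galactocerebroside, Fa2h, which hydroxylates its fatty acid, and Gal3st1, which sulfates it, were higher by 10.17, 9.17 and 8.36, and all 3 were listed at 0 in the median astrocyte-like mouse.

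Neuron-like cells of VISp were low in both routes. Against astrocyte-like cells 27 of the 36 genes were lower and 1 was higher, where 45.2% of all genes were called, 26.9% higher and 18.3% lower (44.6% of the randomly drawn genes), and the medians were -2.0 for the 36 genes and 0.10 for all. Of the sterol genes 15 of 18 were lower, and of the fatty acid genes 8 of 9. Against oligodendrocyte-like cells 20 genes were lower and 2 higher, where 43.5% of all genes were called, 30.2% higher and 13.3% lower (42.7% of the randomly drawn genes), with medians of -0.96 and 0.29. There 8 of 9 fatty acid genes and 6 of 18 sterol genes were lower, with 1 sterol gene, Tm7sf2, higher. With TMM rescaling 9 of 9 and 15 of 18 were lower. These comparisons share the neuron-like mice. TMM rescaling moved the median of all genes to -0.09 and -0.23, and then called 30 lower against astrocyte-like and 31 lower with 1 higher against oligodendrocyte-like cells. In the latter comparison Fdft1 moved from 0.12 to -0.90 and Scd2 from -4.84 to -5.86, again a nearly shared shift. Shares of all genes called with TMM rescaling are not given here.

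Another scale gave other counts for neurons. Averaging log2(CPM + 1) over cells instead of taking the log of the mean gave 8 genes higher and 16 lower against astrocyte-like cells, and 11 higher and 5 lower against oligodendrocyte-like cells. On it 10 genes called against oligodendrocyte-like cells changed sign, among them Msmo1, Fasn, Acly and Fads1, and sterol genes stood at 8 higher and 0 lower. The median of all genes was 0.85 on that scale in both comparisons, beside the larger number of genes detected per neuron-like cell. Its part in the result was not tested.

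In neuron-like cells Msmo1 was at 172.3, 128.7 and 154.5 CPM in the 3 mice, all below the lowest astrocyte-like mouse (difference -4.43, SE 0.23, limma adjusted p = 5.1e-23). Dhcr7 was at 5.86, 19.1 and 12.3 CPM, below the lowest mouse of both glial classes, with differences of -3.75 (SE 0.27) from astrocyte-like and -2.19 (SE 0.27) from oligodendrocyte-like cells. Tm7sf2, at 30.2, 29 and 46.2 CPM, lay between the glial classes without overlap with either, 5.60-fold above oligodendrocyte-like cells. Fdft1, Sqle and Mvd differed from oligodendrocyte-like cells by 0.12 (SE 0.22), -0.13 (SE 0.31) and -0.01 (SE 0.40), none past the threshold on this scale. With TMM rescaling all 3 were called lower (-0.90, -1.14 and -0.98), and with log2 values averaged over cells Fdft1 (1.44) and Sqle (2.03) were called higher. On that last scale Tm7sf2 also changed sign against astrocyte-like cells, to 0.54, which was not called (limma adjusted p = 0.243).

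Of the 6 control and transport genes 3 were lower and 1 was higher than in astrocyte-like cells. Srebf1 was at 0.612, 10.9 and 4.87 CPM in the neuron-like values, below every VISp glial value, with differences of -5.82 (SE 0.34) and -4.88 (SE 0.34; limma adjusted p = 2.7e-21 and 2.4e-18). Insig2, the second retention protein, was the 1 gene higher in neuron-like cells against both classes: 137.8, 154.2 and 115.7 CPM against at most 100.1 CPM in astrocyte-like and 88.8 CPM in oligodendrocyte-like mice. Its differences were 1.04 (SE 0.31, limma adjusted p = 0.00454) and 1.44 (SE 0.31, limma adjusted p = 1e-04). With TMM rescaling they fell to 0.69 and 0.42 and were no longer called (limma adjusted p = 0.0798 and 0.309). Insig1 was 6.41-fold lower than in astrocyte-like cells.

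Fatty acid genes were lower in neuron-like cells for 8 of 9 genes against each glial class. Elovl1 was at 0.685, 1.47 and 4.86 CPM, with differences of -5.08 (SE 0.25) from astrocyte-like and -7.37 (SE 0.25) from oligodendrocyte-like cells. Elovl5 was at 11.6, 39.2 and 25.7 CPM, differing by -5.37 (SE 0.22) and -4.30 (SE 0.22). Scd2 was at 103.6 CPM ± 20.9 (SD, n = 3), differing by -2.93 (SE 0.22) and -4.84 (SE 0.22). All 3 genes lay below every glial mouse of VISp. Scd1 was at 5.98, 1.45 and 1.48 CPM, 26.7-fold below oligodendrocyte-like cells, and Fads2 at 10.9, 5.71 and 1.41 CPM, 75.6-fold below astrocyte-like cells but within the oligodendrocyte-like range (difference -0.90, SE 0.66, limma adjusted p = 0.294). With TMM rescaling that difference was -1.71 and called (limma adjusted p = 0.0379). Elovl6, at 28.7, 73.1 and 57.7 CPM, differed from astrocyte-like cells by -0.47 (SE 0.32, limma adjusted p = 0.241), with the lowest mouse just under the astrocyte-like minimum of 28.9 CPM. Elovl6 was called lower with TMM rescaling (-0.81) and higher with log2 values averaged over cells (2.0).

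Of the other lipid genes, Thrsp, a lipogenic factor, Soat1, which esterifies cholesterol, and Hacd2, a dehydratase of elongation, were lower in neuron-like than in astrocyte-like cells by 5.88, 5.03 and 4.93 on the log2 scale. Elovl2 was lower by 4.40. Against oligodendrocyte-like cells the myelin genes Ugt8a (-9.29), Fa2h (-9.18) and Cers2 (-6.86), a ceramide synthase, led with Elovl7 (-6.01), an elongase. Cyp46a1, which hydroxylates cholesterol for export from neurons, stood at 437.6, 359.4 and 302.2 CPM in neuron-like mice, above all glial mice of VISp.

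**Figure D3:**
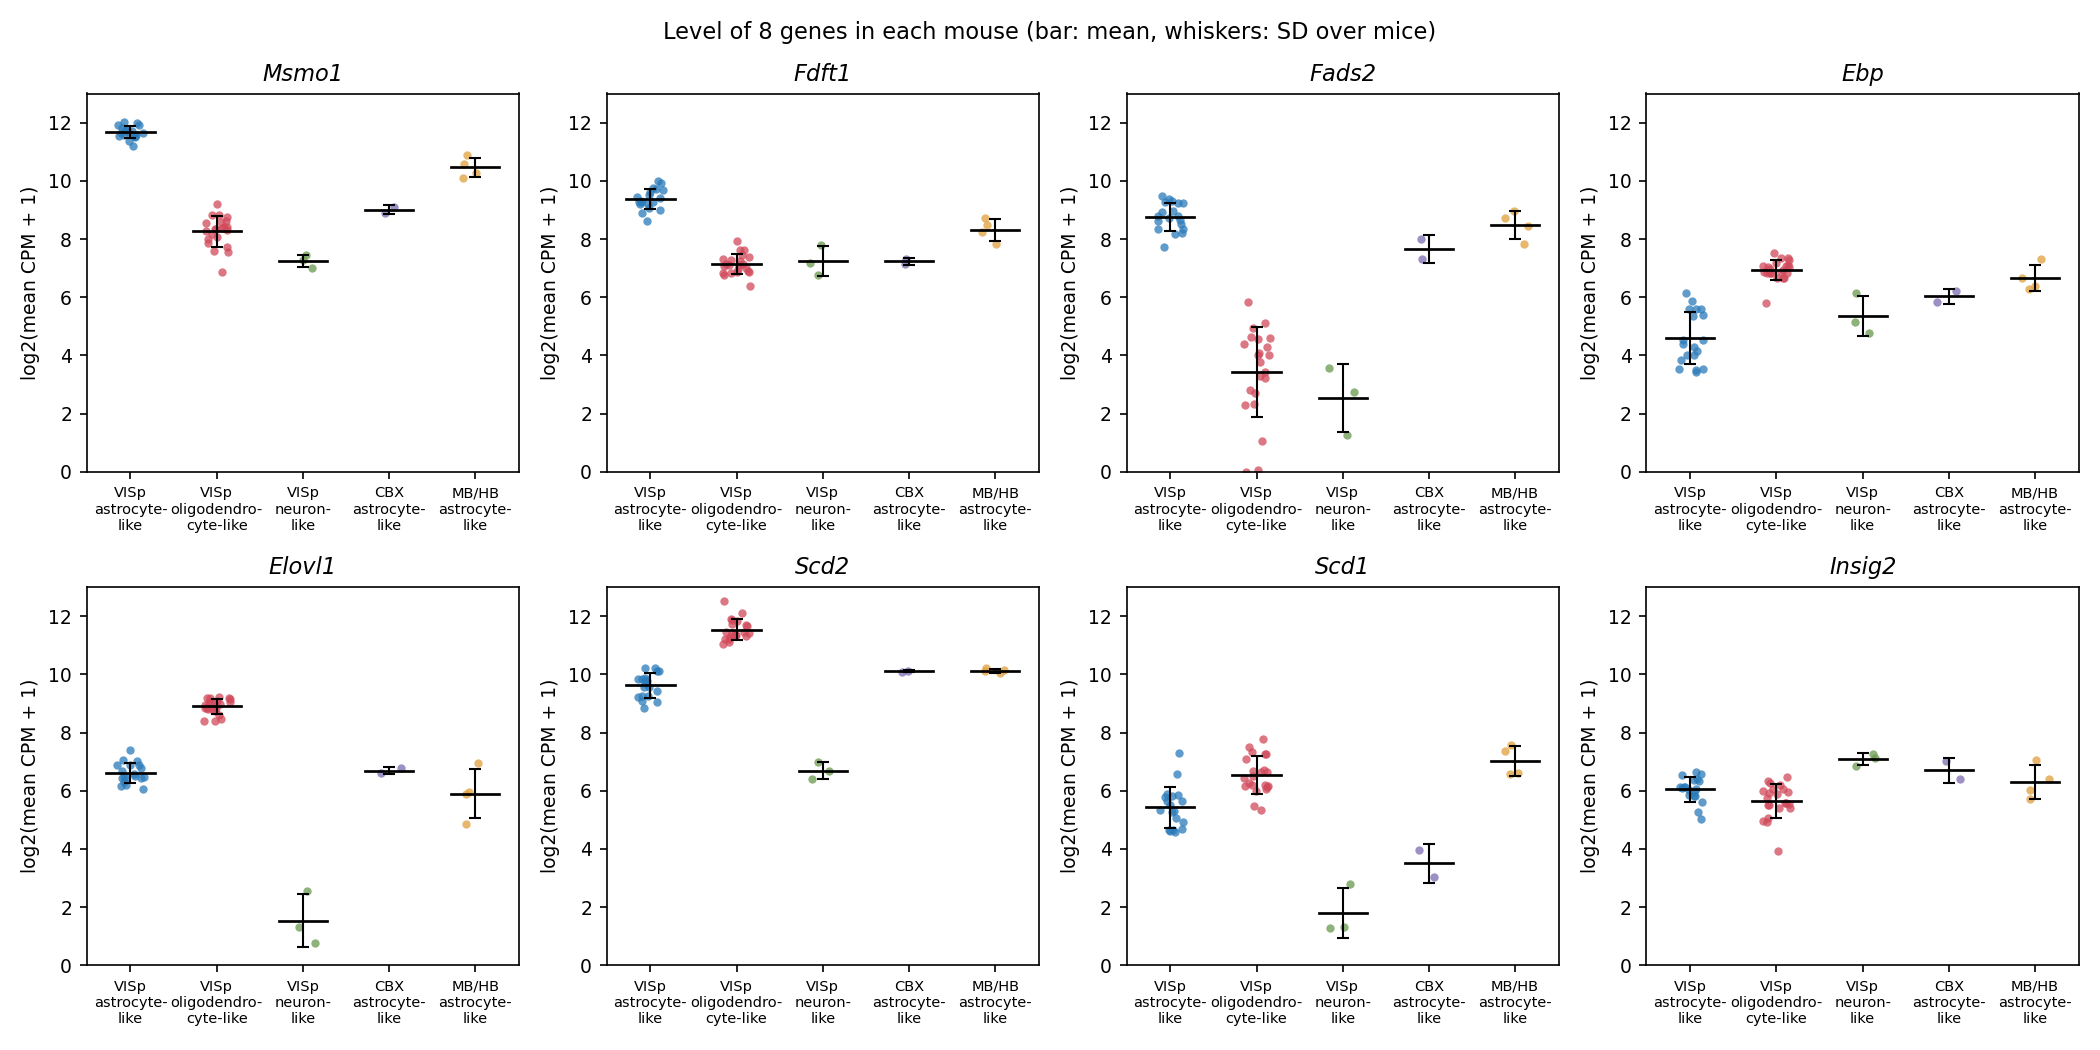
log2(mean CPM + 1) per mouse of 8 genes in the 5 groups; each point is 1 mouse, the bar is the mean and the whiskers the SD over mice. Msmo1, Fdft1 and Fads2 are high in VISp astrocyte-like mice, Elovl1 and Scd2 in oligodendrocyte-like mice, and Insig2 is highest of the VISp classes in neuron-like mice (115.7 to 154.2 CPM), a difference that TMM rescaling reduces to 0.69 and 0.42.

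Astrocyte-like cells of the cerebellar cortex held less of the route than those of VISp. In CBX 20 of the 36 genes were lower and 1 higher, where 13.8% of all genes were called, 7.43% higher and 6.33% lower (13.3% of the randomly drawn genes), with medians of -1.28 for the 36 genes and -0.03 for all. The lower genes were 11 of 18 sterol genes, 4 of 9 fatty acid genes, all 3 of acetyl-CoA supply, Srebf1 and Insig1. The CBX and VISp values did not overlap for 15 of 36 genes, against 12% of all genes. CBX has 2 mice and 1 vector, and the shares of all genes called under the alternatives that follow are not given here. Without mouse A 13 genes were lower and 0 higher, and without mouse B 9 and 0, where the lone CBX mouse is assumed to vary like the other groups. With log2 values averaged over cells 10 genes were lower and 4 higher (Pmvk, Ebp, Insig2 and Elovl1), and 11 of the 21 calls were kept.

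The CBX differences were widest in Msmo1, at 551.2 and 474.2 CPM against at least 2351 CPM in VISp astrocyte-like mice (difference -2.67, SE 0.28, limma adjusted p = 6.9e-11). Mvd was at 26 and 24.3 CPM against at least 45.9 CPM (difference -2.65, SE 0.48), and Fdft1 at 149.2 CPM ± 11 (SD, n = 2) against at least 392.1 CPM (difference -2.15, SE 0.26). Acss2, at 38.3 and 43.6 CPM, lay below every VISp value (difference -2.55, SE 0.39). For these 4 genes both CBX mice lay together and below the VISp range. Insig1 (-2.03, SE 0.54) and Hsd17b7, a sterol ketoreductase (-1.95, SE 0.66), rested on unequal mice: Hsd17b7 was at 31.2 and 6.13 CPM, and neither call held without mouse B (limma adjusted p = 0.374 and 0.834). Hsd17b7 also missed the threshold on AB plates alone (limma adjusted p = 0.0605). Ebp was at 56.3 and 73.1 CPM, near the top of the VISp range (difference 1.44, SE 0.47, limma adjusted p = 0.0287), a call that ended without either mouse and with only CBX and VISp in the fit (limma adjusted p = 0.148).

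In the midbrain and hindbrain 13 of the 36 genes were lower than in VISp and 2 higher, where 16.2% of all genes were called, 7.56% higher and 8.63% lower (15.5% of the randomly drawn genes), with medians of -0.71 and -0.05. Of 7 mevalonate and isoprenoid genes 5 were lower, but of 9 fatty acid genes only Elovl1 and Elovl5 were lower, and Scd1 was higher. The 2 contrasts share the VISp mice, so the values stand side by side: in CBX and MB/HB the differences from VISp were -1.54 and -1.56 for Hmgcs1, -1.25 and -1.26 for Fdps, -2.67 and -1.21 for Msmo1, and -2.15 and -1.06 for Fdft1. Values for 5 of the 36 genes did not overlap between MB/HB and VISp, against 3.35% of all genes.

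Hmgcs1 was at 68.1, 153.4, 122.5 and 148.1 CPM in the 4 MB/HB mice, below the 172.9 CPM of the lowest VISp mouse (limma adjusted p = 6.4e-06). Mvk was at 35.9, 15.6, 55.6 and 20.95 CPM, on both sides of the lowest VISp value of 21.4 CPM (difference -1.87, SE 0.40). Idi1 was at 10, 18.3, 21.3 and 21.2 CPM (difference -1.44, SE 0.29). Stard4, the sterol carrier, was at 0.317, 0.0760, 0 and 2.96 CPM, against a VISp median of 15.1 CPM with a lowest value of 0 (difference -2.85, SE 0.71, limma adjusted p = 0.00268). Most VISp mice therefore lay above the MB/HB mice for Stard4, although the ranges overlapped. Ggps1 was lower too (-1.31, SE 0.23), beside a CBX value of -0.33 (SE 0.31) that missed the threshold, and the difference between CBX and MB/HB itself missed it (0.98, SE 0.37, limma adjusted p = 0.0666). Ebp ranged from 76.1 to 157.1 CPM (mean 104.4 ± 36.6, SD, n = 4), above all 19 VISp values (difference 2.07, SE 0.35, limma adjusted p = 8.3e-06). Scd1 was at 96.95, 163.9, 93.7 and 188.3 CPM (difference 1.60, SE 0.36).

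Ebp is one of the genes that oligodendrocyte-like cells hold at a higher level, and oligodendrocyte markers moved with the tissue. The 12 markers summed to 192.5 to 1270 CPM (median 395.4) in VISp astrocyte-like mice, 797.2 to 6147 CPM (median 1284) in MB/HB and 1923 and 2143 CPM in CBX, where Cldn11 and Hapln2 were at 0. In oligodendrocyte-like cells the sum was at least 66913 CPM. The highest MB/HB sum belonged to the mouse listed last, in which Ugt8a was at 16.8 and Fa2h at 14.8 CPM, against 0 to 0.189 CPM in the other 3 mice. Without that mouse 15 of the 36 genes were called, 2 of them higher. Without cells that carried at least 50% of the markers of another class, 17 were called in MB/HB, 3 of them higher, and 21 in CBX, 1 of them higher. The part of oligodendrocyte RNA in the Ebp and Scd1 differences was not tested beyond this.

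**Figure D4:**
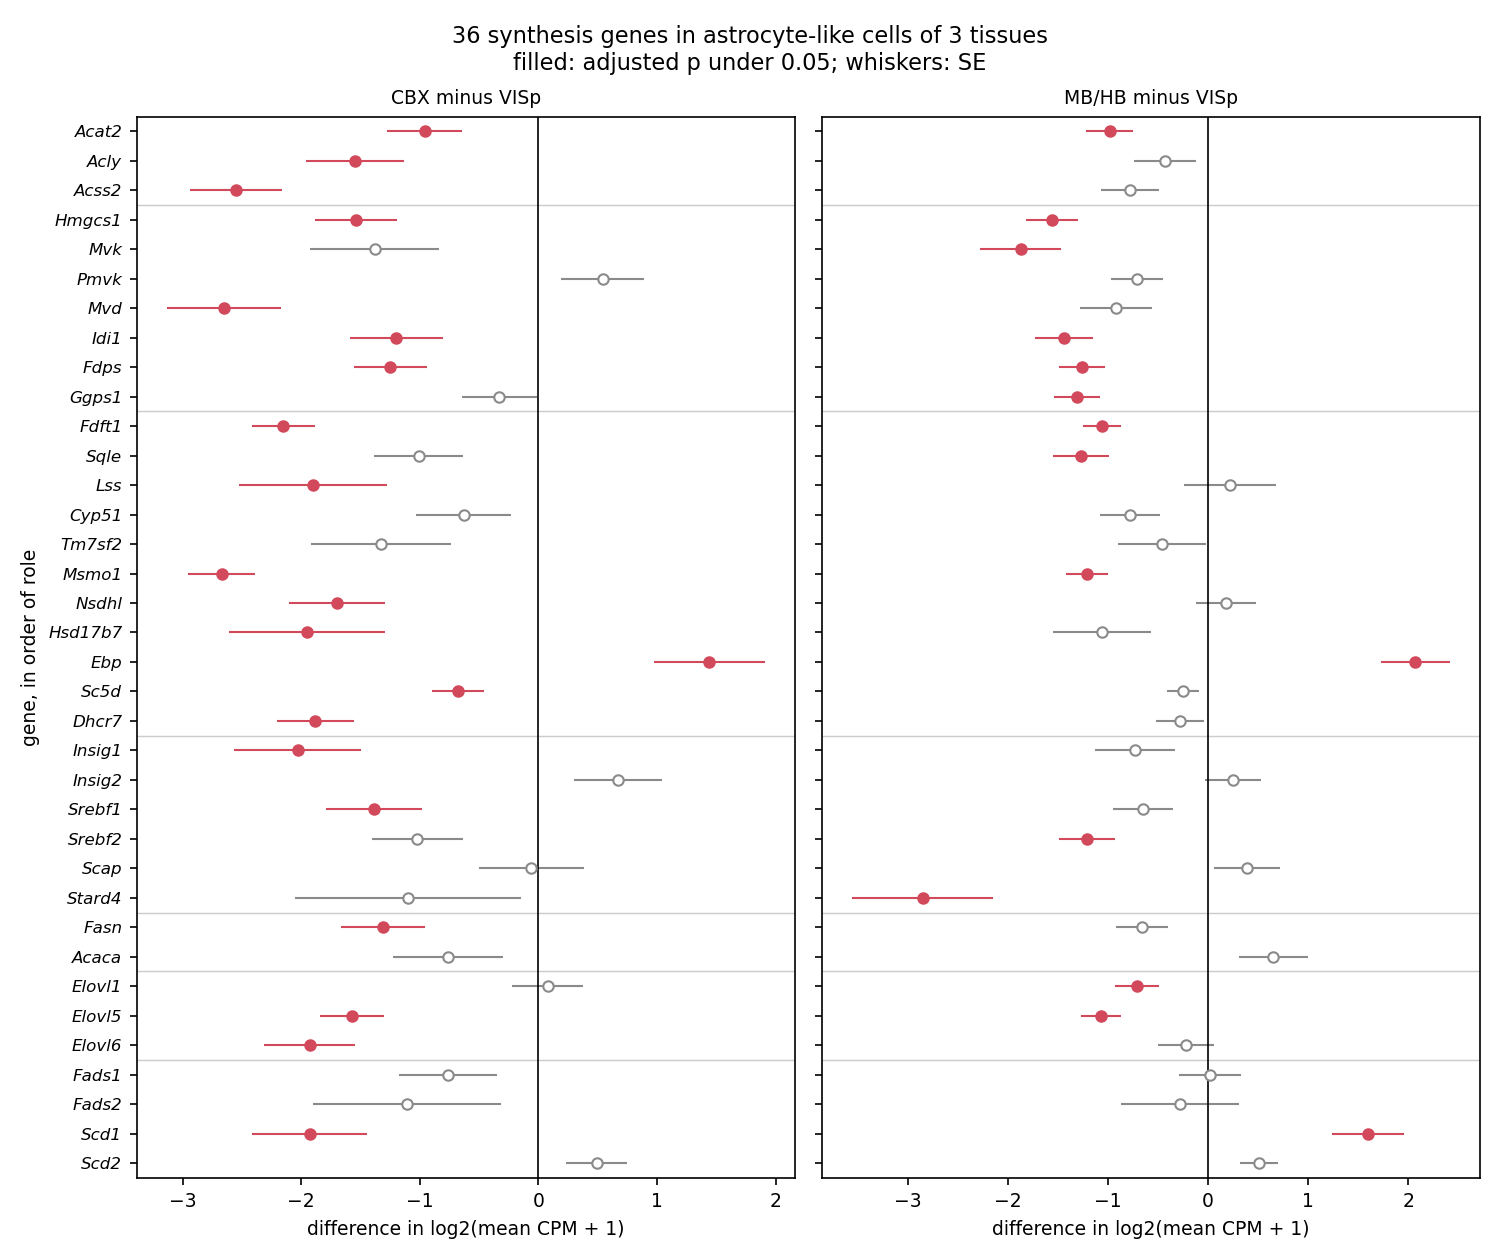
Differences in log2(mean CPM + 1) for the 36 genes, in order of role, of CBX (left; 2 mice) and MB/HB (right; 4 mice) from VISp astrocyte-like cells; filled points passed the adjusted test and whiskers are SE. Msmo1 lies at -2.67 and -1.21 and Ebp at 1.44 and 2.07, and Scd1 lies at -1.93 in CBX and 1.60 in MB/HB.

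Set against each other, CBX and MB/HB differed in 9 lower genes and 1 higher gene in CBX, where 12.5% of all genes were called, 7.09% higher and 5.44% lower (12.2% of the randomly drawn genes), with medians of -0.65 and 0.00. Scd1 differed most, at 7.13 and 14.7 CPM in CBX against 93.7 to 188.3 CPM in MB/HB (difference -3.53, SE 0.56, limma adjusted p = 6.1e-06). The lower sterol genes were Mvd, Fdft1, Lss, Msmo1, Nsdhl and Dhcr7, the higher one Pmvk, at 179.7 and 186.2 CPM against 49.9 to 122.5 CPM. Without CBX mouse A 6 genes were called and without mouse B 3, all lower. Pmvk was not called without either mouse, nor with TMM rescaling (limma adjusted p = 0.0544). Lss, lanosterol synthase, was at 27.2 and 2.12 CPM in the CBX mice, so that its call (-2.12, SE 0.73, limma adjusted p = 0.0444) rested on mouse B (-0.53 without it, limma adjusted p = 0.869). The average of log2(CPM + 1) over cells gave 5 genes higher and 2 lower, and Lss at 0.06.

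Some other lipid genes differed between tissues. In CBX 4 of 27 further synthesis and control genes were lower and none higher, near the 13.8% of all genes called. The widest was Hacd2, at 55.8 and 61.7 CPM against at least 395.1 CPM in VISp (difference -3.10, SE 0.25). Aacs, which makes acetoacetyl-CoA, differed by -2.60 and Cyp46a1 by -1.81. In MB/HB 6 of 27 were lower and 2 higher, where 16.2% of all genes were called. Aacs was at -2.58, Cyp46a1 at -2.02, Fads3 at -1.97 and Elovl7 at -1.93. Between CBX and MB/HB 2 of 27 were lower and none higher, where 12.5% of all genes were called. Hacd2 differed there by -3.55, Acacb, the mitochondrial carboxylase, by -1.45, and the sphingolipid genes Degs1 and Kdsr by 1.13 and 1.08. Hacd2 in MB/HB was at 600.4 to 784.8 CPM, a difference of 0.45 (SE 0.18, limma adjusted p = 0.0879) from VISp.

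Within the oligodendrocyte-like cells of VISp, cells with Enpp6, a marker of newly formed oligodendrocytes, were compared with cells in which it was listed at 0. Enpp6 at 10 CPM or more was a range of a level and not a cell type, and whether these cells were newly formed was not tested. Between 0 and 10 CPM lay 17 cells, which were left out, and 18 mice gave at least 5 cells of both kinds, at median depths of 444252 and 445011 reads. Of the 36 genes 5 were higher in positive cells and 0 lower, where 3.75% of 3308 genes were called, 1.39% higher and 2.36% lower (limma with the mouse as a block), with medians of 0.08 and -0.19. The 5 were the sterol genes Sqle, Fdft1 and Msmo1 and the elongases Elovl1 and Elovl5.

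Elovl5 ranged from 372.8 to 864.1 CPM (median 666.9) in positive and from 327.8 to 594.7 CPM (median 423.5) in negative cells, and was higher in positive cells of 17 of 18 mice (difference 0.54, SE 0.08, limma adjusted p = 6.1e-05). Elovl1 was higher in 17 of 18 mice as well (0.42, SE 0.07). Sqle, at medians of 101.9 and 47.2 CPM, and Fdft1, at 198.7 and 116.4 CPM, were higher in 15 of 18 mice each (0.94, SE 0.19, and 0.56, SE 0.11). The ranges of all 4 overlapped between positive and negative cells, and the difference was taken within mice. Msmo1 was higher in 14 of 18 mice (0.49, SE 0.13, limma adjusted p = 0.0277), a call lost without any 1 of 8 mice and without the mouse block (limma adjusted p = 0.19). Hmgcs1 missed the threshold at 0.55 (SE 0.16, limma adjusted p = 0.0507), and Scd2 at 0.11 (SE 0.03, limma adjusted p = 0.0954). Ugt8a and Gal3st1 were higher by 0.36 and 0.39.

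The split by Klk6, another oligodendrocyte subset marker, rested on 9 mice with 70 positive cells in all, at median depths of positive and negative cells of 473739 and 456724 reads. It shares cells with the first, since over all mice 75 cells were positive for both, 33% of the Enpp6-positive and 76.5% of the Klk6-positive cells. Of the 36 genes 4 were higher and 2 lower in positive cells, where 5.35% of 3030 genes were called, 1.82% higher and 3.53% lower, with medians of 0.15 and -0.31. Elovl1, at 546.3, 786.9 and 837.4 CPM in positive and 408.8, 486.3 and 537.1 CPM in negative cells, was higher in 9 of 9 mice without overlap (0.62, SE 0.08, limma adjusted p = 0.00038). Elovl5 was higher in 9 of 9 mice (0.66, SE 0.10), and Hmgcs1 (0.83, SE 0.21) and Sqle (0.94, SE 0.26) in 8 of 9. Insig1 was lower in 9 of 9 mice (-1.23, SE 0.30) and Fads1 in 8 of 9 (-1.51, SE 0.41). Only Elovl1 and Elovl5 were called with a threshold of 50 CPM, with no filter on low values or without 1 of the mice. Without either of 2 other mice 3 genes were called. Ugt8a, Gal3st1 and Elovl7 were higher by 0.47, 0.56 and 0.50.

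**Figure D5:**
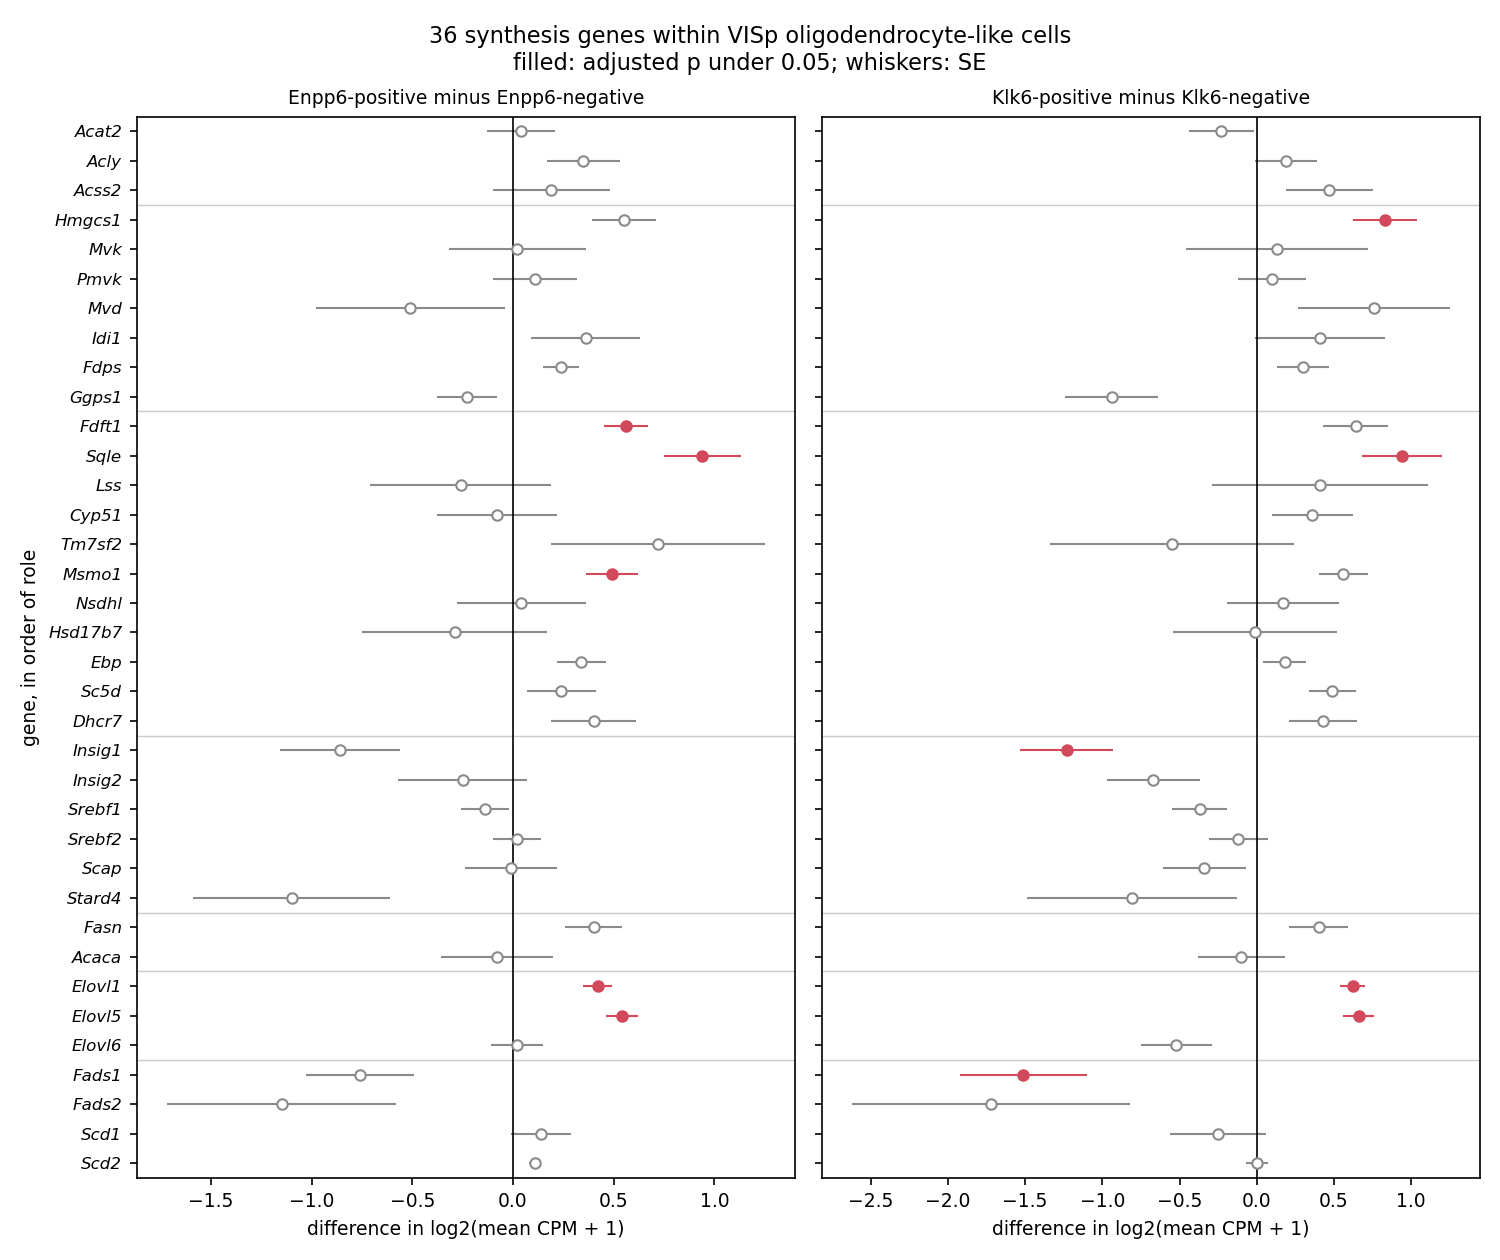
Differences in log2(mean CPM + 1) for the 36 genes, in order of role, between Enpp6-positive and Enpp6-negative (left; 18 mice) and Klk6-positive and Klk6-negative (right; 9 mice) oligodendrocyte-like cells of VISp; filled points passed the adjusted test and whiskers are SE. Elovl1 lies at 0.42 and 0.62 and Elovl5 at 0.54 and 0.66, while Insig1 lies at -0.86 on the left, not called, and at -1.23 on the right.

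Vectors of the same class were compared where at least 2 mice had the same one. Among 5 vectors in 12 mice of oligodendrocyte-like cells, and among 7 vectors in 14 mice of astrocyte-like cells, 0 of the 36 genes differed (limma F-test, adjusted p under 0.05), as did 0% of all genes. At an unadjusted p under 0.05 there were 7 and 2, against 6.22% and 5.21% of all genes. The smallest values were those of Msmo1 in oligodendrocyte-like cells (p = 0.00192, limma adjusted p = 0.324) and Elovl5 in astrocyte-like cells (p = 0.0169, limma adjusted p = 0.892). Between mice of a group the SD of the log2 level had a median over the 36 genes of 0.51 in oligodendrocyte-like and 0.53 in VISp astrocyte-like cells. It ran from 0.26 for Fdps to 1.54 for Fads2 in the first and from 0.21 for Msmo1 to 1.41 for Stard4 in the second.

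Levels can also be set beside the share of cells in which a gene was detected. At 50000 reads per cell the median share over the 36 genes was 49.7% in oligodendrocyte-like, 56.6% in VISp astrocyte-like and 56.3% in neuron-like cells, and 50.7% in CBX and 37.6% in MB/HB astrocyte-like cells (unthinned 56.5%, 66.8%, 75.3%, 63.1% and 45.3%). Tm7sf2 was detected in 57.3% ± 11.8 (SD, n = 3) of neuron-like and 42% ± 13 (SD, n = 19) of astrocyte-like cells, although its mean level was lower in neurons. Insig2 was detected in 98.4% ± 2.75 (SD, n = 3) of neuron-like cells and in 31.2% ± 7.09 (SD, n = 19) and 31.7% ± 12 (SD, n = 22) of astrocyte-like and oligodendrocyte-like cells.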

How the data were processed

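The deposited table holds CPM per cell and gene, made by the authors: each of 2040 lines sums to 1000000 in the file. Reads were aligned with STAR to mm10, per the submitters' processing notes. The counter, annotation and strand setting are not given in the sources used here. All positive values are whole multiples of 1 read (tolerance 0.01 read), which gave a depth of at least 57873 reads per cell (median 434102).

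Of 32245 gene columns 5050 were used: 163 listed genes and 4887 protein-coding genes drawn at random after the table had been opened, which hold a median of 30.4% of CPM. The other 27195 served only for sums, depth and genes detected. The rule for the members is a list of names with no measured value, but the members and the other lists were chosen with earlier results of these data known.

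Cells were clustered (Leiden, leidenalg 0.10.2; 2000 variable genes without lipid genes, 30 components, 15 neighbours, resolution 1) into 10 clusters and named from marker lists, with a fold definition set during the work. They held 914 astrocyte-like, 971 oligodendrocyte-like, 99 neuron-like and 56 unnamed cells. No doublet caller was run. The per-mouse mean CPM of a class (at least 10 cells) was tested as log2(mean CPM + 1) with limma 3.58.1 (R 4.3.3), 5 groups in 1 fit, for 3824 genes with a mean of at least 1 CPM in at least 2 of 50 values. All 36 members passed. The pseudocount of 1 understates changes of low genes. Several classes came from the same mouse by the labels, so the mouse was also fitted as a block. Splits by Enpp6 and Klk6 used the mouse as a block. The fit was tested on simulated data. Python 3.11.15, numpy 2.4.6, pandas 2.3.3, scikit-learn 1.9.0 and igraph 0.11.9 were used.

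Full values were given by rule for the 6 called members of largest change and the 2 of largest change in the rarer direction in each comparison, and the 4 called other lipid genes of largest change. Values of further members were added by role after they had been seen. Alternatives covered pseudocounts, filters, clustering, plates, scaling, blocks and left-out mice. Those without the oligodendrocyte-like mouse that stood apart and without the glia of mice that give neurons were chosen after seeing the data. Some items are not reported here.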

Additional observations from a re-analysis of the deposited data

Results flagged for a closer look

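Of 72 sets of mouse values searched, 6 had 1 mouse far from the others, where chance gives about 1 in 20. In MB/HB astrocyte-like cells the lowest of 4 mice was at 6.20 on the log2 scale for Acly (next 6.53) and at 6.32 for Acaca (next 6.61), each beside 3 mice close together. Among the 9 within-mouse differences by Klk6, the lowest was -5.04 for Mvk (next -0.69), -5.25 for Lss (next -0.66) and -3.67 for Insig1 (next -1.54). The highest for Fasn was 1.71 (next 0.78).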

How the results depend on the processing

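Counts of called genes in the 3 class comparisons and in MB/HB against VISp stayed within 1.5 times under every alternative run. Such counts hide changes of direction. With log2 values averaged over cells, 10 of the 22 genes called between neuron-like and oligodendrocyte-like cells changed sign and 7 calls were kept. Sterol genes went there from 1 higher and 6 lower to 8 higher and 0 lower. With TMM rescaling 6 of the 33 genes called between oligodendrocyte-like and astrocyte-like cells changed sign and 20 calls were kept. Shares of all genes called under the alternatives are not given here. Without 1 mouse, CBX against VISp gave 9 to 13 called genes, against 21, and CBX against MB/HB 3 to 10, against 10. For Klk6 the count was 2 with a threshold of 50 CPM, 2 with no filter on low values and 2 to 7 without 1 mouse, against 6. The median detected share was 75.3% in neuron-like and 63.1% in CBX cells when not thinned. Lss between CBX and MB/HB turned to 0.06 with log2 values averaged over cells. With the mouse as a replicate block the counts of the 6 class and tissue comparisons were 33, 28, 22, 21, 15 and 10, as without it. Without the replicate block Enpp6 gave 4 and Klk6 4. Among single named genes 78 results missed the threshold under an alternative and 799 held. The cause was not tested. The planned count-model alternatives were not run. With 2 CBX and 3 neuron-like mice, the number of mice limits these comparisons.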
